A study of Mus musculus with 6 samples.

Results

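Transcripts of the mitochondrial genome were compared with the nuclear genes that copy, keep and translate them, in single ventricles of mouse embryos with and without deletion of Vhl. The genes described are those whose mouse symbol begins with mt-, Mrpl or Mrps, together with Tfam, Polrmt, Tfb1m, Tfb2m, Twnk, Polg and Lrpprc. Of 127 such genes in the GENCODE M21 annotation of GRCm38, 100 had values among the 13843 genes measured. These were the 13 mRNAs and 2 rRNAs of the mitochondrial genome, 48 of 49 Mrpl genes, all 29 Mrps genes, the 7 genes given by name and 1 pseudogene, Mrpl23-ps1. Mrpl33, the 22 mitochondrial tRNAs and 4 other pseudogenes were not analysed here.

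The study asked how the VHL protein, which targets hypoxia-inducible factors (HIF) for breakdown in the presence of oxygen, bears on metabolism and maturation of the embryonic heart. Ventricles were taken at E12.5 (embryonic day) on a C57BL/6 background, after removal of the atria and valve region, and each library was made from 1 embryo. Controls were Vhl(flox/flox) / Nkx2.5(+/+) (n = 3, litters 1 to 3) and embryos labelled Vhl knockout were Vhl(flox/flox) / Nkx2.5(Cre/+) (n = 3, litters 1, 2 and 4). All embryos thus carried floxed Vhl. Cre was made from 1 Nkx2-5 allele, which is active in heart progenitors, so cells of other origins in the ventricle can keep Vhl, and no group with Cre and intact Vhl was analysed here. Loss of Vhl and the Cre allele therefore cannot be told apart.

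Vhl checked the labels. Its normalised value was 33.7, 36.3 and 38.6 in controls 1 to 3, 11.1 in knockout 1, 10.3 in knockout 2 and 34.5 in the library labelled knockout 3. Nkx2-5 stood at 75.7, 79.2 and 68.6 in controls against 51.6 in knockout 1 and 66.7 in knockout 2, with 80.3 in the library labelled knockout 3. Nkx2-5 in knockouts 1 and 2 against controls did not pass the test given below (adjusted p = 0.19, limma). By its Vhl value, the library labelled knockout 3 thus went against its label. Knockouts 1 and 2 were therefore compared with the 3 controls, and the library labelled knockout 3 is shown apart throughout. As its Vhl value is the reason for this, the difference in Vhl itself is partly circular. Values are reads scaled to a common library size, and libraries held 9067805 to 12592902 reads. A gene was called when its adjusted p (limma on log2(value + 1), Benjamini-Hochberg over all 13843 genes) was under 0.05. By this rule, 588 genes (4.25%) were called, 172 lower (1.24%) and 416 higher (3.01%), and with all 6 libraries as labelled 0 genes were called.

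Mitochondrial DNA is a small circle that encodes 13 subunits of respiratory complexes I, III, IV and V, the 2 rRNAs of the mitochondrial ribosome and a set of tRNAs. Each strand is copied as a long transcript by the polymerase Polrmt with Tfam and Tfb2m, and the transcript is then cut at the tRNAs into separate RNAs. Everything else that makes and translates these RNAs, including all proteins of the mitochondrial ribosome, comes from nuclear genes, so respiratory complexes need products of both genomes. The embryonic heart gains mitochondria and respiratory capacity as it matures.

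Several mitochondrial genes share bases, and the libraries did not mark strand, so reads within the shared stretches cannot be assigned to 1 gene. The sequences below show the 3 overlaps that touch the results, from the GENCODE M21 transcripts on GRCm38, each 5′ to 3′ along its own transcript with the shared bases in capitals. The overlap of mt-Nd4l and mt-Nd4 is 7 bases, that of mt-Atp8 and mt-Atp6 is 43 bases, and in both the genes lie on the same strand and one RNA holds both frames. The ends of mt-Nd5 and mt-Nd6 share 14 bases from opposite strands, mt-Nd6 being the 1 mRNA encoded on the other strand.
mt-Nd4l end (chrM:10114-10173, plus strand): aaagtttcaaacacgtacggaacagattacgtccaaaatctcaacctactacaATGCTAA
mt-Nd4 start (chrM:10167-10226, plus strand): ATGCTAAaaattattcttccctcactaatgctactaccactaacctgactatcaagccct
mt-Atp8 end (chrM:7910-7969, plus strand): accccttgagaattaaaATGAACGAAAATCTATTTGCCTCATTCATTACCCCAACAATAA
mt-Atp6 start (chrM:7927-7986, plus strand): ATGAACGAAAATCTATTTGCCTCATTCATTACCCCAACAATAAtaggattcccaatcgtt
mt-Nd5 end (chrM:13506-13565, plus strand): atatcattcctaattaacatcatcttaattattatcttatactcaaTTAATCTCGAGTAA
mt-Nd6 end (chrM:13552-13611, minus strand): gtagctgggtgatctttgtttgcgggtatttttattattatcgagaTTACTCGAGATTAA

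Nuclear copies of mitochondrial DNA also limit which reads can be assigned. Of the 15 mitochondrial genes, 9 had a nuclear pseudogene of at least 95% identity over at least 30% of their length, 11 copies in all. The copy of mt-Nd4l, Gm10222 (chromosome 1, 24612407 to 24612700), matches 294 of its 297 bases without a difference. Gm10222 was listed with the same value as mt-Nd4l in 6 of 6 libraries. The reads of this sequence were therefore split evenly between them, and the level of mt-Nd4l is uncertain, although its ratios between libraries are those of the shared sequence. The other 10 copies were not analysed here.

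Mitochondrially encoded transcripts were lower in knockouts 1 and 2. Of 15, 5 passed the test as lower and 0 as higher, against 1.24% and 3.01% of all genes. Those that fell were both rRNAs and the mRNAs of the complex I subunits mt-Nd4l, mt-Nd5 and mt-Nd6. Their log2 fold changes ran from -0.78 to -0.49, and all 15 were below 0 (51.8% of all genes were). The median was -0.32 over the 15, against -0.01 over all genes. Summed over the 13 mRNAs, the value was 63550, 65991 and 69655 in controls 1 to 3, 56579 in knockout 1, 49491 in knockout 2 and 71723 in the library labelled knockout 3. Knockouts 1 and 2 together stood at 79.9% of the control mean, below every control, while the library labelled knockout 3 was above every control. As a share of all reads, the 13 mRNAs made up 6.32%, 6.63% and 7.06% in controls against 5.56% in knockout 1 and 4.98% in knockout 2, with 7.18% in the library labelled knockout 3. With 2 libraries against 3, an exact permutation test cannot go below p = 0.2 (two-sided), and this sum gave that value. In whole ventricles, fewer cells rich in mitochondria and less mitochondrial RNA per cell cannot be told apart. The libraries were selected for poly(A), so a smaller share of this RNA kept by the selection cannot be told apart from these either.

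Cell-type markers were summed in the same libraries. Cardiomyocyte markers, all 10 measured, summed to 34007 to 42023 in controls against 41356 in knockout 1 and 36484 in knockout 2, with 37695 in the library labelled knockout 3, and 0 of 10 were called by limma. Of 8 epicardial markers 3 were called higher (3.01% of all genes were), and their sum was 316 to 392 in controls against 744 in knockout 1 and 643 in knockout 2, with 360.1 in the library labelled knockout 3. Of 6 smooth muscle and pericyte markers 3 were called higher, with sums of 1250.3 to 1591 in controls against 2496 and 2501 in knockouts 1 and 2. Endothelial and endocardial markers had 2 of 10 called higher, with sums of 1653 to 1731 in controls against 1898 and 1925 in knockouts 1 and 2. Of erythroid, mesenchymal, macrophage and neural markers 0 were called. No measured marker was at 0 in every library. Epicardial, smooth muscle and endothelial markers thus moved with the comparison in which the mitochondrial transcripts were lower, and their part in that result was not tested.

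The rRNAs had the largest fold changes of the mitochondrial genes. mt-Rnr1, the rRNA of the small subunit (ENSMUSG00000064337, chromosome M of GRCm38, 70 to 1024; positions of the other mitochondrial genes are on the same sequence), stood at 170.1, 216 and 221 in controls against 119 in knockout 1 and 114 in knockout 2, with 227 in the library labelled knockout 3. It fell by 0.78 ± 0.12 (SE) on the log2 scale (adjusted p = 0.011, limma). mt-Rnr2, the rRNA of the large subunit (ENSMUSG00000064339, 1094 to 2675), stood at 473, 576 and 553 in controls against 306 in knockout 1 and 346 in knockout 2, with 535 in the library labelled knockout 3. It fell by 0.71 ± 0.10 (adjusted p = 0.011, limma). For both rRNAs the groups did not overlap, and the library labelled knockout 3 lay inside the control range for mt-Rnr2 and above it for mt-Rnr1. As for the mRNAs, these values count only the RNA that the poly(A) selection kept. Relative to the mRNAs, rRNA stood at 10.1, 12.0 and 11.1 per 1000 units of mRNA value in controls against 7.50 in knockout 1 and 9.30 in knockout 2, with 10.6 in the library labelled knockout 3. Knockouts 1 and 2 were again below every control (exact permutation p = 0.2, the smallest possible).

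Complex I mRNAs spanned the widest range of the mRNAs. mt-Nd5, a proton-pumping membrane subunit (11742 to 13565), stood at 4107, 4502 and 4496 in controls against 2555 in knockout 1 and 2913 in knockout 2, with 4647 in the library labelled knockout 3. It fell by 0.68 ± 0.13 (adjusted p = 0.028, limma). mt-Nd6, a membrane subunit whose gene lies on the other strand (13552 to 14070), stood at 1181, 1296 and 1389.7 in controls against 813 in knockout 1 and 844 in knockout 2, with 1363 in the library labelled knockout 3. It fell by 0.63 ± 0.10 (adjusted p = 0.012, limma). Both knockouts were well under every control for these neighbouring genes, whose ends are shown above. Reads from the mt-Nd6 locus include any from the opposite strand.

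mt-Nd4l, the smallest of the called complex I genes (9877 to 10173), stood at 337, 389 and 393 in controls against 255 in knockout 1 and 275 in knockout 2, with 399 in the library labelled knockout 3. It fell by 0.49 ± 0.09 (adjusted p = 0.025, limma), with the limit on its level given above. mt-Nd4, which lies on the same RNA (10167 to 11544), stood at 4835, 5298 and 5597 in controls against 3855 in knockout 1 and 3893 in knockout 2, with 5618 in the library labelled knockout 3. Its groups did not overlap and its fold change was close to that of mt-Nd4l at -0.43 ± 0.13, but it did not pass (adjusted p = 0.14, limma). mt-Nd2 stood at 2693, 2950.1 and 3139 in controls against 2191 and 2079 in knockouts 1 and 2, a change of -0.45 ± 0.12 that also did not pass (adjusted p = 0.080, limma). edgeR's quasi-likelihood test on the recovered reads called both mt-Nd2 and mt-Nd4 lower (adjusted p = 0.033 and 0.032).

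The 2 remaining complex I mRNAs showed smaller differences. mt-Nd1 stood at 4413, 4598 and 4885 in controls against 4083 and 3729 in knockouts 1 and 2, a change of -0.25 ± 0.13 (adjusted p = 0.38, limma). mt-Nd3 stood at 688, 714 and 823 in controls, 719 in knockout 1 and 538 in knockout 2, a change of -0.25 ± 0.14 (adjusted p = 0.40, limma). mt-Nd3 was thus inside the control range in knockout 1 and below it in knockout 2. Summed over the 7 complex I mRNAs, knockouts 1 and 2 stood at 73.4% of the control mean.

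None of the 6 mRNAs of complexes III, IV and V passed limma's test. They lay between -0.32 and -0.22 on the log2 scale, 0 had an unadjusted p under 0.05, edgeR called 0 and DESeq2 called 2, mt-Co1 and mt-Cytb. In limma's fit the median half-width of the 95% confidence interval was 0.36 for these 6, against 0.30 for the complex I mRNAs. mt-Co1, the catalytic subunit of cytochrome c oxidase (complex IV), stood at 17764, 18106 and 18602 in controls against 15856 in knockout 1 and 13337 in knockout 2, with 19530 in the library labelled knockout 3, a change of -0.32 ± 0.22 (adjusted p = 0.51, limma). It had the highest value of all 13843 genes in the control mean. mt-Co2, which takes electrons from cytochrome c, stood at 7440.2, 7010.3 and 8179 in controls against 7064 and 5612 in knockouts 1 and 2, so that knockout 1 lay inside the control range. mt-Co3 stood at 6376, 6741 and 6759 in controls against 6264 and 5130.2 in knockouts 1 and 2.

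mt-Cytb, the 1 mitochondrially encoded subunit of complex III, stood at 6708, 7300.3 and 7305 in controls against 6096 in knockout 1 and 5556 in knockout 2, with 7589 in the library labelled knockout 3, a change of -0.29 ± 0.15 (adjusted p = 0.38, limma). Its groups did not overlap. The ATP synthase (complex V) mRNAs mt-Atp6 and mt-Atp8 share the RNA shown above. mt-Atp6 stood at 5602, 5637 and 6421 in controls against 5452 and 4459 in knockouts 1 and 2. mt-Atp8 stood at 1405.5, 1449.5 and 1665 in controls against 1376 and 1126 in knockouts 1 and 2. In both, knockout 1 lay just under the lowest control and knockout 2 further below. Over the 13 mRNAs the knockouts did not overlap the controls for 11, all lower (17.0% of all genes were lower without overlap). The exceptions were mt-Co2 and mt-Nd3.

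**Figure D1:**
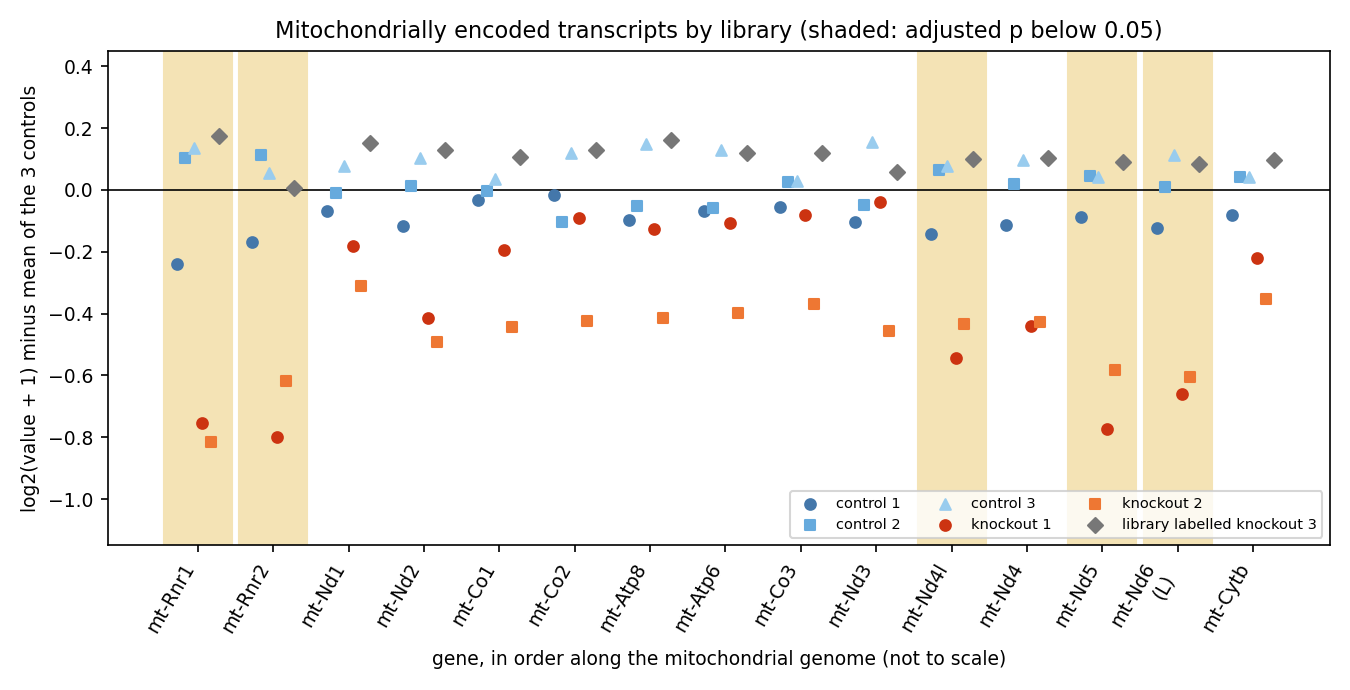
Each point is 1 library's log2(value + 1) for a mitochondrial gene, minus the mean of the 3 controls, with genes in genome order and (L) marking the 1 mRNA on the other strand. Shaded genes were called lower (mt-Rnr1, mt-Rnr2, mt-Nd4l, mt-Nd5, mt-Nd6), knockout 2 lies below the controls for all 15, and the library labelled knockout 3 lies at or above 0.

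The 5 calls rested on few libraries. As many were called with litter as a block in litters 1 and 2 (5, with 1 residual degree of freedom, where 3.21% of all genes were called lower and 4.92% higher) and without control 1 (5), but 0 were called without control 2, 3 without control 3, 0 without knockout 1 and 1 without knockout 2. With 1 knockout left, that library is assumed to vary as the controls do. The direction was kept in each omission. Over these 5 omissions mt-Rnr1 stayed between -0.90 and -0.72, mt-Rnr2 between -0.80 and -0.62, mt-Nd5 between -0.77 and -0.58, mt-Nd6 between -0.70 and -0.58 and mt-Nd4l between -0.56 and -0.43. edgeR called 7 of the 15 lower and 0 higher (1.18% and 2.94% of all genes), and DESeq2 called 10 lower and 0 higher (1.99% and 3.97%). With all 6 libraries as labelled 0 were called, the 15 lying between -0.47 and -0.11.

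Each litter gave its own ratio. In litter 1 the sum of the 13 mRNAs in the knockout was 89.0% of that in its littermate control, and in litter 2 it was 75.0%. The difference between litters was small for complex I mRNAs, at 79.3% and 72.3%, and wider for the ATP synthase mRNAs, at 97.5% and 78.8%. The rRNA sum was at 66% in litter 1 and 58.1% in litter 2. With 1 pair per litter these differences between litters were not tested.

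Within the mRNA pool, the shares of 5 of the 13 genes did not overlap between groups. Among the values of all genes, 17.0% were lower and 18.1% higher without overlap. As parts of 1 pool, the shares also depend on each other. mt-Nd5 made up 6.46%, 6.82% and 6.45% of the 13 mRNAs in controls against 4.52% in knockout 1 and 5.89% in knockout 2, with 6.48% in the library labelled knockout 3. mt-Nd6 made up 1.86%, 1.96% and 2.00% in controls against 1.44% in knockout 1 and 1.71% in knockout 2, with 1.90% in the library labelled knockout 3. mt-Nd2 also took a smaller share in both knockouts than in any control. mt-Nd1 and mt-Co3 took a larger share, mt-Nd1 at 6.94%, 6.97% and 7.01% in controls against 7.22% and 7.54%. Each of these 5 gave p = 0.2 in the exact permutation test, the smallest that 2 against 3 allows. Complex I as a whole overlapped, at 28.7%, 29.9% and 29.8% in controls against 25.6% and 28.8% in knockouts 1 and 2 (exact permutation p = 0.4). The ratio of mt-Nd6 to its neighbour mt-Cytb was 0.176, 0.177 and 0.190 in controls against 0.133 and 0.152 in knockouts 1 and 2.

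**Figure D2:**
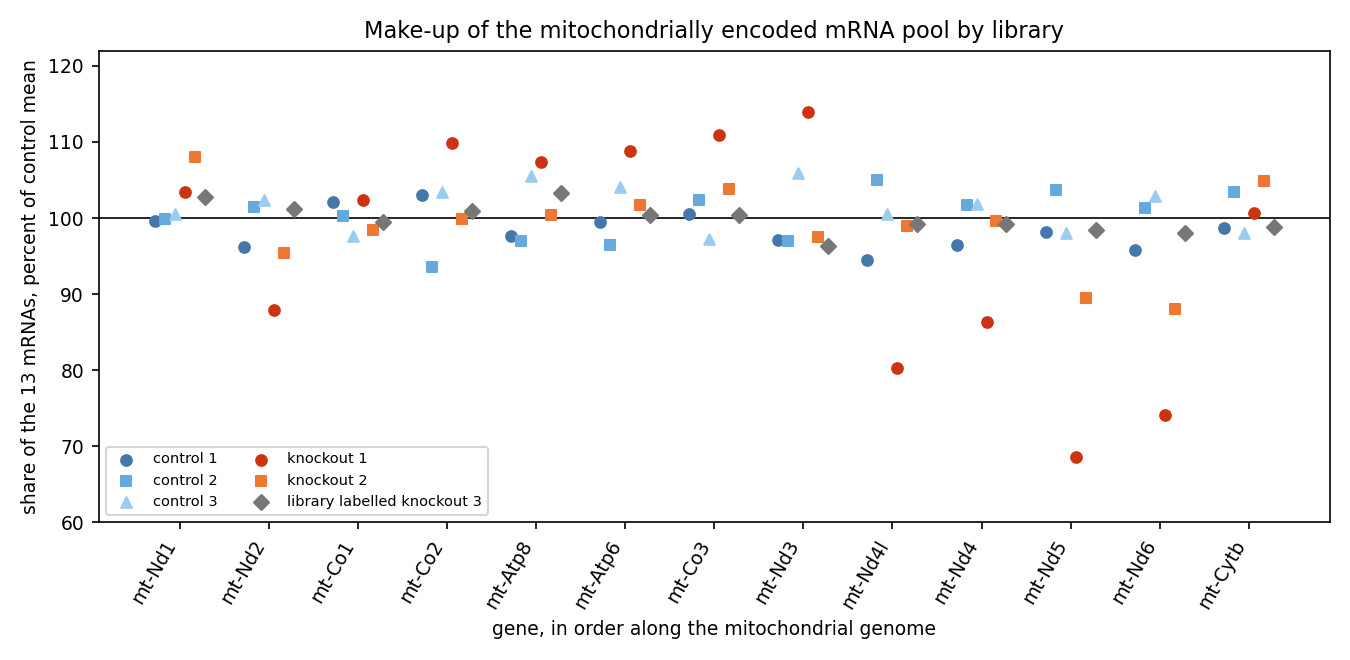
Each point is a gene's share of the summed value of the 13 mitochondrial mRNAs in 1 library, as percent of the mean share in the 3 controls. mt-Nd5 and mt-Nd6 lie below every control in knockouts 1 and 2 (means of 79.0% and 81.0% of the control share), mt-Nd1 lies above, and the library labelled knockout 3 lies close to the controls.

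Per length the mitochondrial mRNAs differed widely in the controls. mt-Co1 had 11752 and mt-Co2 11028 units of value per kb, mt-Atp6 8644.5 and mt-Co3 8451, mt-Cytb 6210.1, mt-Nd1 4840.2 and mt-Nd4 3805. The lowest were mt-Nd5 at 2395, mt-Nd3 at 2132 and mt-Nd4l at 1256, the last with the limit given above. Of complex IV, mt-Co1 and mt-Co2 thus led, and the 7 complex I mRNAs were the lowest per length. The mRNAs called lower, mt-Nd6 at 2483 among them, were thus among the lowest per length, as was mt-Nd3, which was not called. limma's standard error was 0.09 for mt-Nd4l, the lowest of the 13 mRNAs in value, and 0.22 for mt-Co1, the highest. Passing the test thus depended in part on level, and a link between level and change was not tested.

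No Mrpl or Mrps gene passed the test. These genes were taken by symbol as those of the mitochondrial ribosome, although Mrps36 is not a protein of it. The ribosome has a small subunit, which reads the mRNA, and a large subunit, which joins the amino acids and is tethered to the inner membrane. Of 48 Mrpl and 29 Mrps genes, limma called 0 in either direction, as did edgeR (4.12% of all genes), DESeq2 (5.97%) and the fit with litter as a block (8.13%). At an unadjusted p under 0.05 (limma), 8 of the 77 were lower and 1 was higher, 9 in all. Of all 13843 genes, 1115 were lower and 1349 higher at that p, 17.8% in all. Fold changes were below 0 for 31 of 48 Mrpl (64.6%) and 19 of 29 Mrps genes (65.5%), against 51.8% of all genes. The median was -0.05 in each group. Without overlap between groups, 19 of the 77 were lower (17.0% of all genes) and 8 higher (18.1% of all genes).

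Summed over the 48 Mrpl genes, the value was 1988, 2018 and 2028 in controls against 1979.6 in knockout 1 and 1884 in knockout 2, with 2010.2 in the library labelled knockout 3. The 29 Mrps genes summed to 1053, 1069 and 1057 in controls against 1038 in knockout 1 and 955 in knockout 2, with 1049 in the library labelled knockout 3. Knockout 1 was close to the controls and knockout 2 lower, and the mean of the 2 knockouts was 96.1% of the control mean for Mrpl and 94.1% for Mrps. Both sums were below those of every control (exact permutation p = 0.2, the smallest possible). Within litters the Mrpl sum of the knockout was 99.6% and 93.4% of its littermate control, and the Mrps sum 98.6% and 89.4%.

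Small subunit genes had the smallest p among the Mrp genes. Mrps9, a protein of the small subunit's head that lies close to the tRNA sites, stood at 50.04, 52.3 and 51.6 in controls against 44.0 in knockout 1 and 41.4 in knockout 2, with 48.6 in the library labelled knockout 3. Its change of -0.26 ± 0.08 did not pass (adjusted p = 0.13, limma). Mrps35 stood at 41.5, 41.3 and 38.7 in controls against 34.7 and 30.6 in knockouts 1 and 2, a change of -0.31 ± 0.09 (adjusted p = 0.13, limma). Mrps7, Mrps2 and Mrps31 followed, at -0.30, -0.23 and -0.27. For these 5 both knockouts were below every control, and the library labelled knockout 3 was below the controls for Mrps9 and Mrps7 and inside their range for the other 3. The highest Mrps fold changes were those of Mrps18b, Mrps24, Mrps18c, Mrps21 and Mrps10, between 0.10 and 0.11.

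In the large subunit the lower genes with the smallest p were Mrpl42 at -0.25, Mrpl3 at -0.24, Mrpl16 at -0.20, Mrpl50 at -0.19 and Mrpl37 at -0.15 (adjusted p of 0.24 to 0.34, limma). Mrpl3, a core protein of the large subunit, stood at 61.1, 69.0 and 66.4 in controls against 59.5 and 51.6 in knockouts 1 and 2. Mrpl17 stood at 30.4, 32.7 and 31.0 in controls against 38.2 and 35.1 in knockouts 1 and 2. It was the 1 Mrp gene with an unadjusted p under 0.05 and a higher value, at 0.22 ± 0.09 (adjusted p = 0.27, limma). Mrpl14 at 0.26, Mrpl54 at 0.16 and Mrpl43 at 0.11 also lay above 0. Mrpl23 had the highest fold change, at 0.50 ± 0.25, but also the lowest level of the 77, at 2.55, 3.94 and 4.09 in controls against 6.71 and 4.21 in knockouts 1 and 2. It shares 540 bases at 100% identity with the pseudogene Mrpl23-ps1, which was listed at 23.8 to 29.5 in controls, so the values of both are uncertain. The highest level was that of Mrpl12, a protein of the stalk that binds translation factors, at 130, 117 and 112 in controls against 108 and 115 in knockouts 1 and 2. Mrpl42 and Mrpl18 came next.

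How much change these 77 genes could hide was given by their intervals. The 95% confidence interval of the fold change held 0 for 68 of the 77. It lay wholly above -0.29, the median of the 13 mitochondrial mRNAs, for 40, and reached that value or less for the other 37. The lowest bound was -0.53 (Mrps36, not a protein of the ribosome) and the highest 1.09 (Mrpl23), and the median half-width was 0.23. Of those 37 intervals, 29 also held 0, so for these genes no change and a change of that size could not be told apart.

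**Figure D3:**
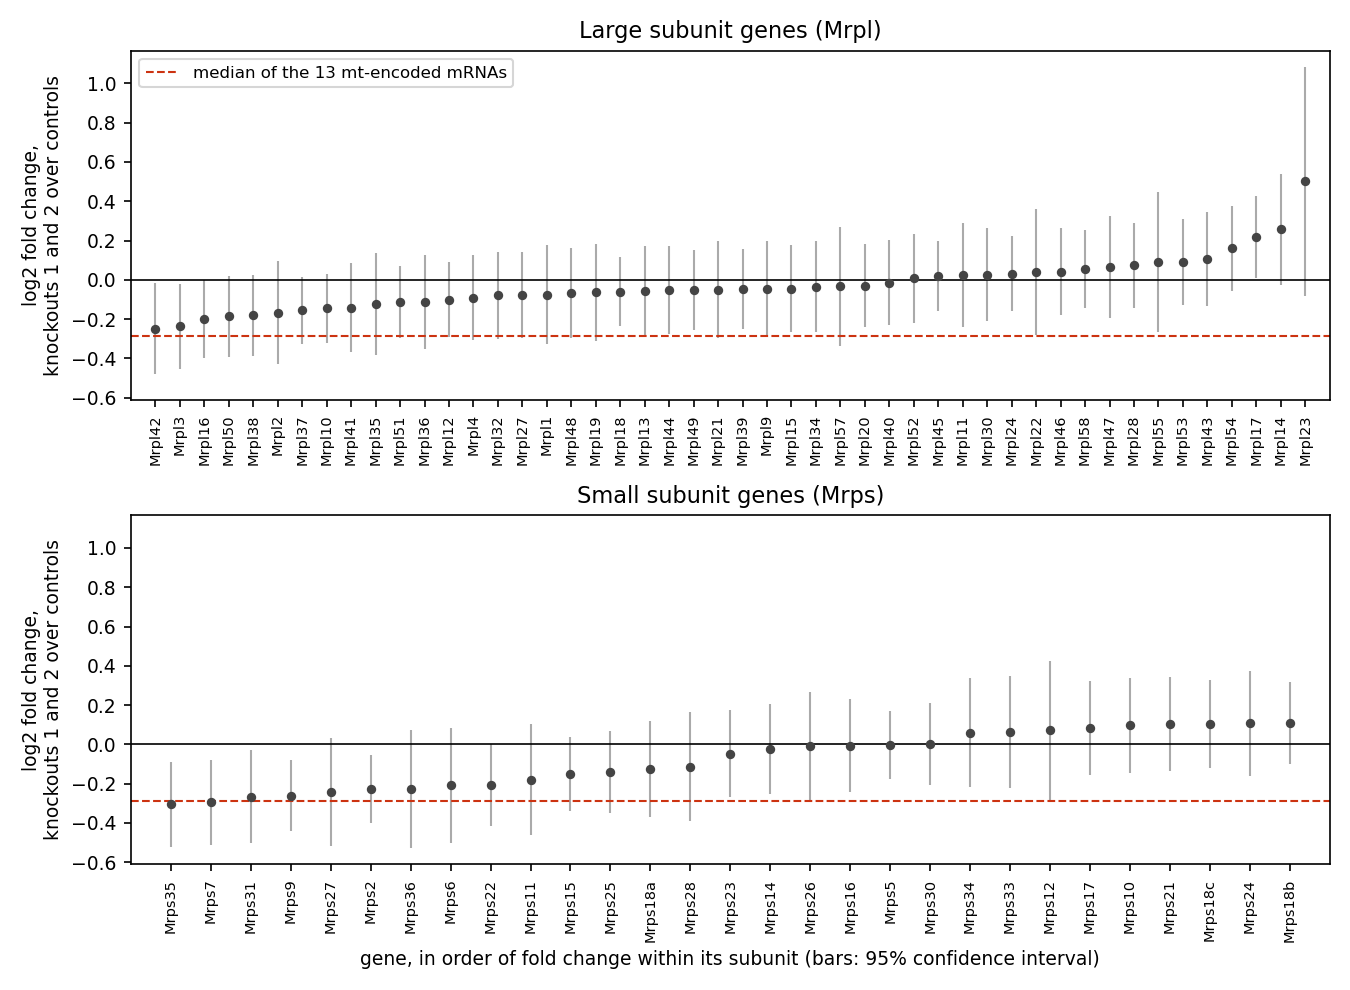
Points are log2 fold changes of single Mrpl (top) and Mrps (bottom) genes in knockouts 1 and 2 over 3 controls, bars are 95% confidence intervals, and the dashed line is the median of the 13 mitochondrial mRNAs (-0.29). None of the 77 was called, 68 intervals hold 0 and 40 lie above the dashed line.

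The balance of the 2 parts was read within each library. Per 1000 units of mitochondrial mRNA value, the 77 Mrp genes summed to 47.8, 46.8 and 44.3 in controls 1 to 3, 53.3 in knockout 1, 57.4 in knockout 2 and 42.7 in the library labelled knockout 3. The ratio was higher in both knockouts than in any control, at 119.5% of the control mean, and higher in the knockout of each litter, at 111.5% and 122.6% of the littermate control. The exact permutation test again gave 0.2, the smallest p possible. In these libraries the mitochondrial mRNAs were thus further below the controls than the Mrp genes were, in both litters.

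Of the 7 genes given by name, called copying and maintenance genes for short, 1 passed the test, as lower (1.24% of all genes were called lower). That gene acts on RNA, and the other 6 did not pass. Lrpprc, which binds mitochondrial mRNAs and is needed for their stability and polyadenylation (ENSMUSG00000024120, chromosome 17, 84705247 to 84790789), stood at 189, 170.4 and 173 in controls against 143 in knockout 1 and 137 in knockout 2, with 181 in the library labelled knockout 3. It fell by 0.34 ± 0.07 (adjusted p = 0.048, limma). Both knockouts were below every control, at -0.40 in litter 1 and -0.32 in litter 2. The call was marginal: the adjusted p was 0.062 in edgeR's quasi-likelihood test, 0.0054 in DESeq2 and 0.019 with litter as a block, and it was lost in limma without any 1 of the 5 libraries (adjusted p of 0.10 to 0.17), while the change stayed between -0.37 and -0.29. Slirp, the binding partner of Lrpprc (named after its values were seen), stood at 30.4, 29.5 and 27.6 in controls against 31.5 and 30.5 in knockouts 1 and 2, a change of 0.09 ± 0.09 (adjusted p = 0.70, limma).

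The other 6 lay between -0.13 and 0.05. Tfam, which packs mitochondrial DNA and opens its promoters, stood at 58.4, 53.7 and 63.4 in controls against 54.6 in knockout 1 and 52.5 in knockout 2, with 58.3 in the library labelled knockout 3. Its change was -0.12 ± 0.09 (adjusted p = 0.56, limma; 95% confidence interval -0.33 to 0.09). Polrmt, the RNA polymerase, stood at 29.3, 27.9 and 24.8 in controls against 23.5 and 26.025 in knockouts 1 and 2 (-0.13 ± 0.11, adjusted p = 0.61). Neither gene separated the groups. Tfb2m, the initiation factor that works with Polrmt, stood at 29.1, 29.2 and 33.0 in controls against 28.5 and 27.4 in knockouts 1 and 2 (-0.12 ± 0.10, adjusted p = 0.62), lower without overlap but by a small margin. Tfb1m, which methylates the small rRNA, stood at 13.1, 11.6 and 12.2 in controls against 14.1 and 11.0 in knockouts 1 and 2 (0.02 ± 0.15). Twnk, the replicative helicase, was at 31.8, 32.5 and 32.1 in controls against 29.02 and 31.9 in knockouts 1 and 2 (-0.08 ± 0.09). Polg, the DNA polymerase, was at 74.7, 68.8 and 65.03 in controls against 70.6 and 73.3 in knockouts 1 and 2 (0.05 ± 0.08).

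**Figure D4:**
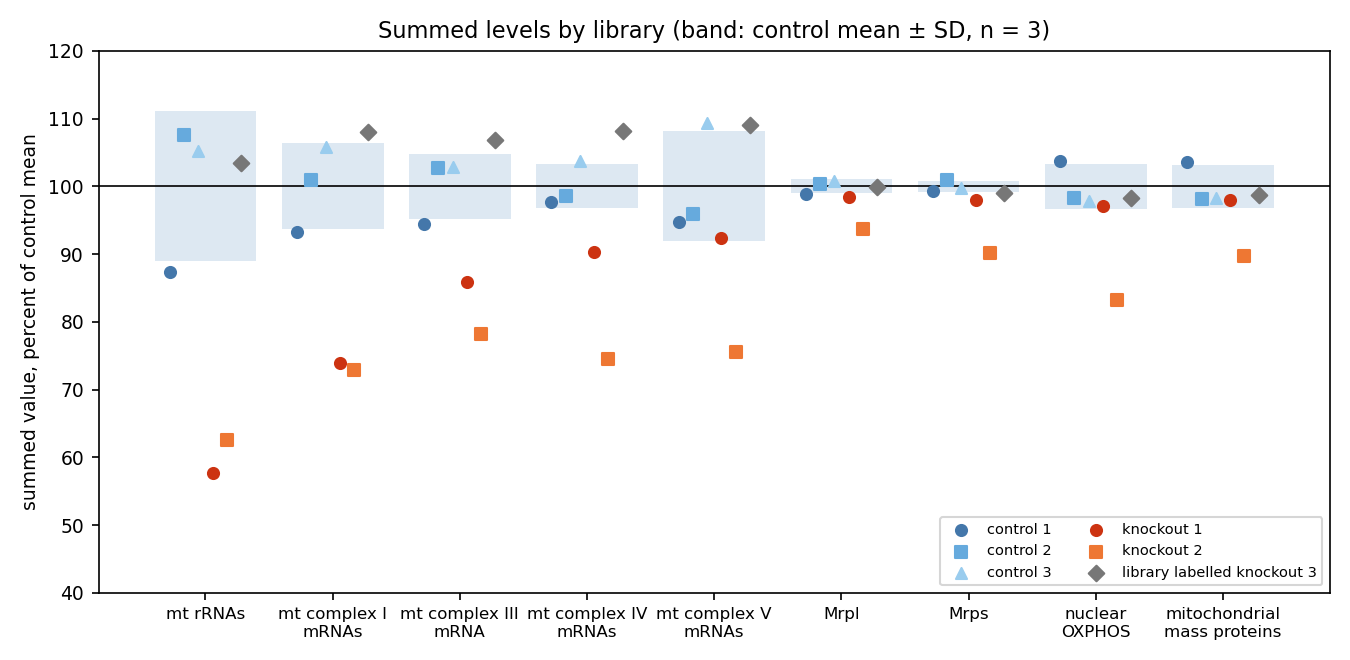
Points are summed values of each gene group in 1 library as percent of the mean of the 3 controls, and bands are the control mean ± SD (n = 3). The means of knockouts 1 and 2 are 60.1% for the rRNAs, 73.4% for complex I mRNAs and 94.1% or more for Mrpl and Mrps, and knockout 2 is below knockout 1 for each group but the rRNAs.

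Other nuclear genes for the expression of the mitochondrial genome were read from lists set beside the members. The first lists held 6 genes entered as ribosomal proteins without an Mrp symbol, 23 assembly and rRNA-modifying factors and 20 RNA processing and decay factors. Next came 14 translation factors and 20 genes for aminoacyl-tRNA synthesis. Of all these genes limma and edgeR called 0. Oxa1l, entered with the ribosomal proteins, is not itself a protein of the ribosome. At an unadjusted p under 0.05 (limma) these lists held 1, 0, 1, 2 and 4 genes, all lower. Of all 13843 genes, 1115 were lower and 1349 higher at that p, 17.8% in both directions together. DESeq2 called 1 synthesis gene. Without overlap between groups, these lists held 1, 5, 1, 6 and 6 lower genes (17.0% of all genes). Higher without overlap were 1, 0, 2, 2 and 2 genes of these lists (18.1% of all genes). Their medians were 0.02, -0.09, -0.04, -0.14 and -0.11. The smallest p were those of Oxa1l (-0.22) and Ptcd3 (-0.15), of Mtg1 (-0.25) and Mettl15 (-0.32), of Fastkd1 (-0.38) and Fastkd5 (-0.17), of the elongation factors Tufm (-0.25) and Gfm1 (-0.19), and of Gatb (-0.37) and Lars2 (-0.52). With litter as a block, 1 of 20 processing factors, Fastkd1 (adjusted p = 0.022, limma), and 1 of 20 synthesis genes, Lars2 (adjusted p = 0.047, limma), were called lower. By that fit 3.21% of all genes were called lower. Lars2, which charges the leucine tRNA, stood at 107.5, 152 and 125 in controls against 100.1 and 78.2 in knockouts 1 and 2.

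Of 19 elongation, termination and replication accessories, 1 rose and 0 fell (3.01% and 1.24% of all genes). Lonp1, a matrix protease that degrades Tfam among other proteins, stood at 135, 137 and 123 in controls against 212 in knockout 1 and 224 in knockout 2, with 136 in the library labelled knockout 3. It rose by 0.72 ± 0.07 (adjusted p = 0.0021, limma), was called without any 1 of the 5 libraries, and moved opposite to the mitochondrial transcripts. Of 13 regulators of nuclear mitochondrial genes, Mxi1, an antagonist of Myc, rose by 0.57 ± 0.10 (adjusted p = 0.022, limma), from 40.7, 50.3 and 45.3 in controls to 68.1 and 67.3. That call was lost without control 3 (adjusted p = 0.061) and without either knockout. Nrf1 and Gabpa, activators of many nuclear mitochondrial genes (named after their values were seen), changed by -0.06 and -0.08 (adjusted p = 0.80 and 0.68, limma). With litter as a block, 4 of the 13 regulators were called lower and 2 higher (3.21% and 4.92% of all genes). The 4, named after their values were seen, were Ppargc1a (adjusted p = 0.016), Ppargc1b (0.0085), Esrrb (0.019) and Esrrg (0.048), which promote mitochondrial gene expression, and Myc (0.023) joined Mxi1 among the higher, all by limma.

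Nuclear genes for the respiratory chain and for mitochondrial content had medians of -0.11 and -0.08. Of 82 nuclear subunits of oxidative phosphorylation 2 fell, Cox6a2 (-0.62 ± 0.07) and Ndufa4 (-0.54 ± 0.08), against 1.24% of all genes, and 3 rose, against 3.01%. The latter were Cox4i2, Ndufa4l2 and Ndufv3, of which Cox4i2 and Ndufa4l2 are known to be induced by low oxygen. The call of Ndufv3 was lost without knockout 1 or any 1 of the controls (highest adjusted p 0.068, limma). Fold changes were below 0 for 71 of the 82 (86.6%), against 51.8% of all genes. Without overlap between groups, 32 were lower and 5 higher (17.0% and 18.1% of all genes). With litter as a block 9 of the 82 were called lower (3.21% of all genes), and DESeq2 called 8 (1.99%). Their sum stood at 20894, 19797 and 19704 in controls against 19553 and 16738 in knockouts 1 and 2, at 90.1% of the control mean. Of 19 proteins of the outer membrane, inner membrane and matrix, 2 rose, the channel Vdac1 (0.38 ± 0.08) and Tspo (0.54 ± 0.11), and 1 fell, the chaperonin Hspd1 (-0.35 ± 0.08). Each of these 3 calls was lost when any 1 of the 5 libraries was left out (adjusted p of 0.053 to 0.228, limma), with the direction kept. The sum of the 19 stood at 93.8% of the control mean.

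**Figure D5:**
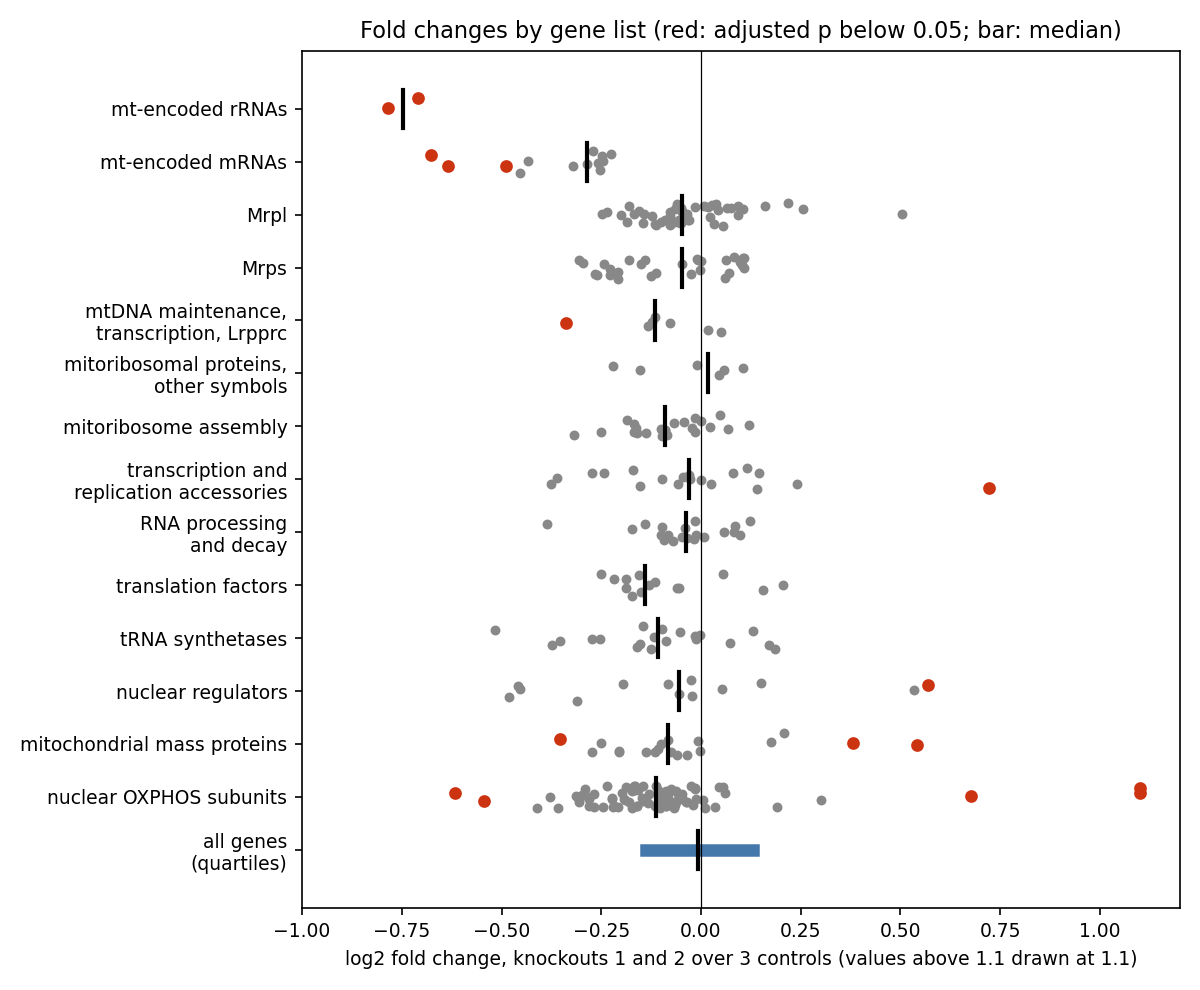
Each point is the log2 fold change of 1 gene in knockouts 1 and 2 over 3 controls (values above 1.1 drawn at 1.1), bars are list medians, red marks an adjusted p under 0.05, and the bottom row spans the quartiles of all genes. The rRNAs (median -0.75) and mitochondrial mRNAs (-0.29) lie furthest to the left, while Mrpl and Mrps lie near the median of all genes.

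Promoters were described by 3 short motifs, searched on both strands of the RefSeq windows of GRCm38.p6, which run from 250 bases before to 50 bases after each start. The ETS core CCGGAA, the core bound by the Gabpa factor, was present in 56.76% of 74 Mrpl and Mrps promoters, from 39 of 68 genes matched, and in 14.9% of all 32851 promoters. It was in 5 of 8 promoters of the 7 genes for copying and maintenance. The NRF1 core was in 4.05% of Mrpl and Mrps promoters and 0.971% of all, and the hypoxia response core ACGTG in 25.7% and 19.6%. Of the 8 promoters of the copying and maintenance genes, 0 held the NRF1 core and 1 held ACGTG. These are matches of letters in a window, not sites.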

How the data were processed

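Poly(A) RNA of 6 ventricles was read as 75 bp single reads from TruSeq libraries of 500 ng total RNA each, per the labels' protocols. The submitters' processing notes name CASAVA 1.8.2, cutadapt 1.3, RSEM 1.2.3 and GRCm38; no source used here gave the annotation release, gene filter or scaling. The values the authors deposited are a normalized signal for 13843 genes. In each library they were whole multiples of 1 step (tolerance 0.01 reads), which gave back the reads; the steps matched edgeR's TMM-scaled library sizes. In 3 or more libraries each gene reached a value of 1. RSEM shares out reads of close copies, found here with blastn 2.17.0.

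GENCODE M21 gave 13681 genes a symbol and left 162 without. limma 3.58.1 with trend (R 4.3.3) was run on log2(value + 1), which understates changes of low genes, over 5 libraries. Of the fits, values from the library labelled knockout 3 entered only that of all 6. Replicates were single embryos. As alternatives edgeR 4.0.16 and DESeq2 1.42.0 were run on the recovered reads, 100% of values being whole, and called 570 and 826 genes. The others were litter as a block, pseudocounts of 0.1 and 5, a mean of at least 5, rescaling to equal totals with and without mitochondrial genes, and leaving out each library. Litters in the labels give the pairs (control 1 with knockout 1, control 2 with knockout 2); the design text speaks of 3 litters where the labels give 4. Deviations from group means correlated at 0.204 and 0.28 within litters 1 and 2, and at 0.0125 between the libraries numbered 3, of different litters. These means were taken over all 6 libraries as labelled, so the library labelled knockout 3 entered them. Sums were compared by two-sided exact permutation tests (scipy 1.17.1).

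Named were Vhl, Hif1a, Nkx2-5, each mt- gene and each gene given by name. Of Mrpl and of Mrps the 5 with the smallest p in each direction and, of both together, the 3 with the highest control mean were named; of each other list the genes called or, with none, the 2 with the smallest p. Hif1a, which encodes an oxygen-regulated subunit of HIF, stood at 457, 405 and 447 in controls against 185 in knockout 1 and 163 in knockout 2, with 473 in the library labelled knockout 3. The members and lists were chosen with earlier results of these data known. Models were tested on simulated data. There limma called 100% of genes given a log2 change of size 1 and 41% of those given 0.5. Changed genes were drawn from those above a minimum mean value, so the members with the lowest values were not covered. Smaller changes and litter effects were not simulated.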

Additional observations from a re-analysis of the deposited data

How the results depend on the processing

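No called value and no median of the mitochondrially encoded, Mrpl, Mrps or maintenance genes changed sign in an alternative, but several calls were lost. With all 6 libraries as labelled 0 genes were called in any list, and the medians were -0.18 (mitochondrially encoded genes), -0.023 (Mrpl) and -0.020 (Mrps), with a summed mitochondrial log2 ratio of -0.17 against -0.33. With litters 1 and 2 as a block, the counts of all genes were 444 lower and 681 higher, those of nuclear respiratory subunits 9 lower, of regulators 4 lower and 2 higher, and of RNA processing and tRNA synthesis genes 1 lower each, while the Mrps median was -0.083; the pairing by litter changed no call of a mitochondrially encoded, Mrp or maintenance gene. DESeq2 called 276 genes lower, and in the lists 10 mitochondrially encoded genes, 8 respiratory subunits, 2 mass proteins, 1 regulator and 1 synthesis gene lower. edgeR and a pseudocount of 0.1 called 0 of the 7 copying and maintenance genes. Rescaling to equal totals gave an Mrps median of -0.061; without mitochondrial genes it gave -0.084 for Mrpl and -0.083 for Mrps, 5 respiratory subunits lower and 1 mass protein higher. Leaving out 1 library at a time gave 44 to 90 genes lower and 146 to 297 higher, 0 to 5 mitochondrially encoded genes lower with medians of -0.43 to -0.22 and a summed log2 ratio of -0.43 to -0.24, and 0 to 0 maintenance genes lower. Medians then ran from -0.077 to -0.0091 for Mrpl and from -0.10 to -0.022 for Mrps, with 0 to 0 mass proteins lower and 0 to 0 higher, 0 to 1 regulators lower and 0 to 1 higher. Among the named genes, 64 values under an alternative lost a call and 12 gained one, with 0 reversed. The causes were not tested. Counting error is widest for the lowest member, Mrpl23, at 2.55 to 6.71 in the 5 libraries compared.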
